A study of Mus musculus with 8 samples.

Results

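The 55 genes described here are transcription factors that mark the layers of the early mouse embryo and the trophoblast, the outer tissue that builds the placenta. They were taken from a list of gene names that sets no threshold on a value, and all 55 were found among the 23284 gene symbols of the table. By their best-known role, 8 were assigned to endoderm, 19 to mesoderm, 19 to ectoderm (mostly neural) and 9 to trophoblast. Several of them act in more than 1 layer, Eomes and Cdx2 among them.

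Pluripotent stem cells can form all 3 germ layers and keep most lineage regulators low. Within pluripotency, cells can lie nearer to a naive state, like the inner cell mass, or nearer to a primed state, like the epiblast after implantation, in which regulators of early lineages begin to be transcribed. Some of these genes also work in pluripotent cells themselves: Gbx2, a homeobox factor of the midbrain-hindbrain boundary, acts downstream of LIF and STAT3 in naive cells, and Tfap2c binds enhancers of naive cells and of trophoblast.

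The data are RNA-seq of mouse induced pluripotent stem cells (iPSCs), cells brought back to a pluripotent state from embryonic fibroblasts and grown on feeder cells. The wild-type cells, labelled ColA1_miR203 (+/+); Rosa26rtTA (+/+), gave 4 libraries, 1 each from cells given control siRNA, siRNA to Dnmt3a, siRNA to Dnmt3b, or both siRNAs, and taken 1 week later. The knock-in cells, labelled ColA1_miR203 (KI/KI); Rosa26rtTA (KI/KI), carry on both alleles a doxycycline-inducible miR-203 and the rtTA activator it needs, and gave 2 clones treated with doxycycline (dox) and 2 clones given vehicle. Dox was given for 5 days and then withdrawn for 2 weeks, so these libraries report on cells after the microRNA had been induced and not on cells under induction. Vehicle clones carry the same alleles as dox clones, no wild-type library received dox, and no knock-in library was transfected with siRNA. The wild-type and knock-in lines therefore differ in genotype, transfection and culture together, which cannot be told apart, and the labels do not say how many clones the wild-type line holds. The question here is which of these genes were on at all, which differed between the lines, and which moved with dox.

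The mature sequence of miR-203-3p is shown because it is the agent that dox induces. It is RefSeq's on GRCm38.p6, at chr12:112130927-112130948 on the plus strand, written 5′ to 3′ with the seed (bases 2 to 8) in capitals.
miR-203-3p: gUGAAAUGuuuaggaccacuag
Targets were looked for as the letters CATTTCA, the reverse complement of the seed, on the transcribed strand of the longest annotated 3′ UTR of each gene (GENCODE mouse release 21 in the M series, GRCm38). Of the 55 genes, 9 held a match (16.4%), as did 3360 of 20966 protein-coding genes (16.0%), and the median UTR was 1246 bases long in the 55 and 954 in all. The 9 were Foxa1, Gata6, Hand2, Isl1, Mef2c, Tbx20, Pou3f2, Pou3f3 and En2. None of the 9 was tested with dox in the main fit, since all were too low for the filter used here. With no filter on low values all 9 were tested with dox. Gata6 was then called higher and En2 lower, and the others were not called. In that fit 8.3% of all genes tested were higher and 5.07% lower. With the filter, En2 alone was tested between the lines, where it was lower in the vehicle clones, which were given no dox. It was also lower in both dox clones than in both vehicle clones. The site of En2 is shown because the gene passed the filter between the lines. That of Hand2 is shown as an example of a gene that was higher in both dox clones than in both vehicle clones. Gata6 and Pou3f3 were also higher in that way, and Isl1 and Pou3f2 were lower, as was En2. Both sites have the match in capitals. They lie at chr5:28170854-28170883 and chr8:57324356-57324385, both on the plus strand.
En2 site: ttttattgctgCATTTCAcaggactgtgaa
Hand2 site: tagtgctgtcaCATTTCAaatgtcattgtc
A match is a run of letters and not a measured site.

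Promoters are shown for 4 genes on which the comparisons turn, since Dnmt3a and Dnmt3b, the siRNA targets, methylate cytosines in CpG pairs. Each is the 250 bases before the RefSeq start on GRCm38.p6, on the gene's strand, with every CG in capitals: Gbx2 at chr1:89931177-89931426 (minus strand, 18 CG), Sox1 at chr8:12395269-12395518 (plus, 29 CG), Pax6 at chr2:105668646-105668895 (plus, 15 CG) and Eomes at chr9:118477939-118478188 (plus, 8 CG).
Gbx2: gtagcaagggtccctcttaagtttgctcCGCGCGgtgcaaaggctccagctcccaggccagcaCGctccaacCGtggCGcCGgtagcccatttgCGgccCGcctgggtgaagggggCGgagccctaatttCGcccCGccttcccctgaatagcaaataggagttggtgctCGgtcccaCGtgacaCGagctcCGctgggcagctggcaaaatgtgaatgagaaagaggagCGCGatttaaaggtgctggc
Sox1: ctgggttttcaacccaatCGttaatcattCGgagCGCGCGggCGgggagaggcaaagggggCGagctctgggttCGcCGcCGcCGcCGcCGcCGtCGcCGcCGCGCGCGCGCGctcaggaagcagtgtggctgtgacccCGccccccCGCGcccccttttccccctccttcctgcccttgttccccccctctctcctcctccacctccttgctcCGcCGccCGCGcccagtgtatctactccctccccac
Pax6: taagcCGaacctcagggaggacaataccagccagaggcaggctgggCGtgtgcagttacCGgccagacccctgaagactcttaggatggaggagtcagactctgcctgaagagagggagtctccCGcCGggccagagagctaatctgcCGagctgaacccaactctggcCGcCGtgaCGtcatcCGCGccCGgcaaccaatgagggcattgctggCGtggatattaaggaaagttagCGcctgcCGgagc
Eomes: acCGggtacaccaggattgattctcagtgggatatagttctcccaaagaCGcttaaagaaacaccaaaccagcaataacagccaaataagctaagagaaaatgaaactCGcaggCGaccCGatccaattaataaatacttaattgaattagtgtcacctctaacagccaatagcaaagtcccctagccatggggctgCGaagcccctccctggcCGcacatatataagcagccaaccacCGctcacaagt
RefSeq and GENCODE differ on the start of Sox1: its GENCODE gene begins at chr8:12395295, within the window shown. Pax6 has another RefSeq window, at chr2:105682213-105682462 (15 CG). RefSeq's promoter table held 52 windows for 41 of the 55 genes. The median window of these genes held 15 CG (range 1 to 33), against 6 in all 32851 windows of the table, and 65.4% held 10 or more, against 37.8%. Windows of genes that were under 1 FPKM in every library had a median of 8 CG (30 windows), and those of the other genes a median of 19 (22 windows). The 6 windows of genes lower in knock-in cells held 15 to 29 CG, and the 4 windows of genes higher in knock-in cells 8 to 22. The letters TATAAA, searched on both strands, were in 11.5% of the genes' windows and 12.4% of all windows. Methylation was not measured here, so these are counts of letters.

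The libraries' FPKM (fragment counts divided by transcript length and library size) summed to between 486917 and 586657, and 11620 to 12076 genes per library reached 1 FPKM. Dnmt3a was at 75.1 FPKM with control siRNA, 59.8 with its own siRNA, 77.6 with siRNA to Dnmt3b and 69.5 with both, and Dnmt3b was at 146, 135, 128 and 135 in the same order, so 1 week after transfection neither target was strongly reduced. All 15 pluripotency markers were at 1 FPKM or more in every library. Fibroblast markers were present throughout: 30 of them summed to 496 to 639 FPKM in wild-type libraries, 1194 and 1422 in vehicle clones and 3934 and 4139 in dox clones, with 1 or 2 of the 30 at 0 per library. The 8 macrophage markers summed to 139 to 190 FPKM in wild type, 238 and 266 in vehicle and 321 and 409 in dox, none at 0. In such bulk RNA, fewer cells of a type and less RNA per cell cannot be told apart. Nothing says that the libraries of a group came from separate cultures beyond the clone numbers, so p-values speak only of these libraries. The test used (limma) draws each gene's spread toward that of genes at a like level. Its p-values therefore do not rest on a gene's own spread alone.

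Most of the genes were close to silent. In every one of the 8 libraries, 33 of 55 stayed under 1 FPKM, which was 6 of 8 endoderm, 15 of 19 mesoderm, 8 of 19 ectoderm and 4 of 9 trophoblast factors. Over the whole table, 43.9% of symbols were under that level. The highest value among the silent genes was 0.879 FPKM for Mesp2, a factor of somite formation, in the double siRNA library, and the lowest peak among the others was 1.01 FPKM for Gata6, which specifies primitive endoderm. Only Gbx2, Sox1, Sox11 and Tfap2c reached 10 FPKM in any library, and 42 of the 55 were above 0 in all 8. Near silence was not the same as 0: 9 to 14 of the genes reached 1 FPKM in a given library, and 2 to 8 were listed at 0.

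**Figure D1:**
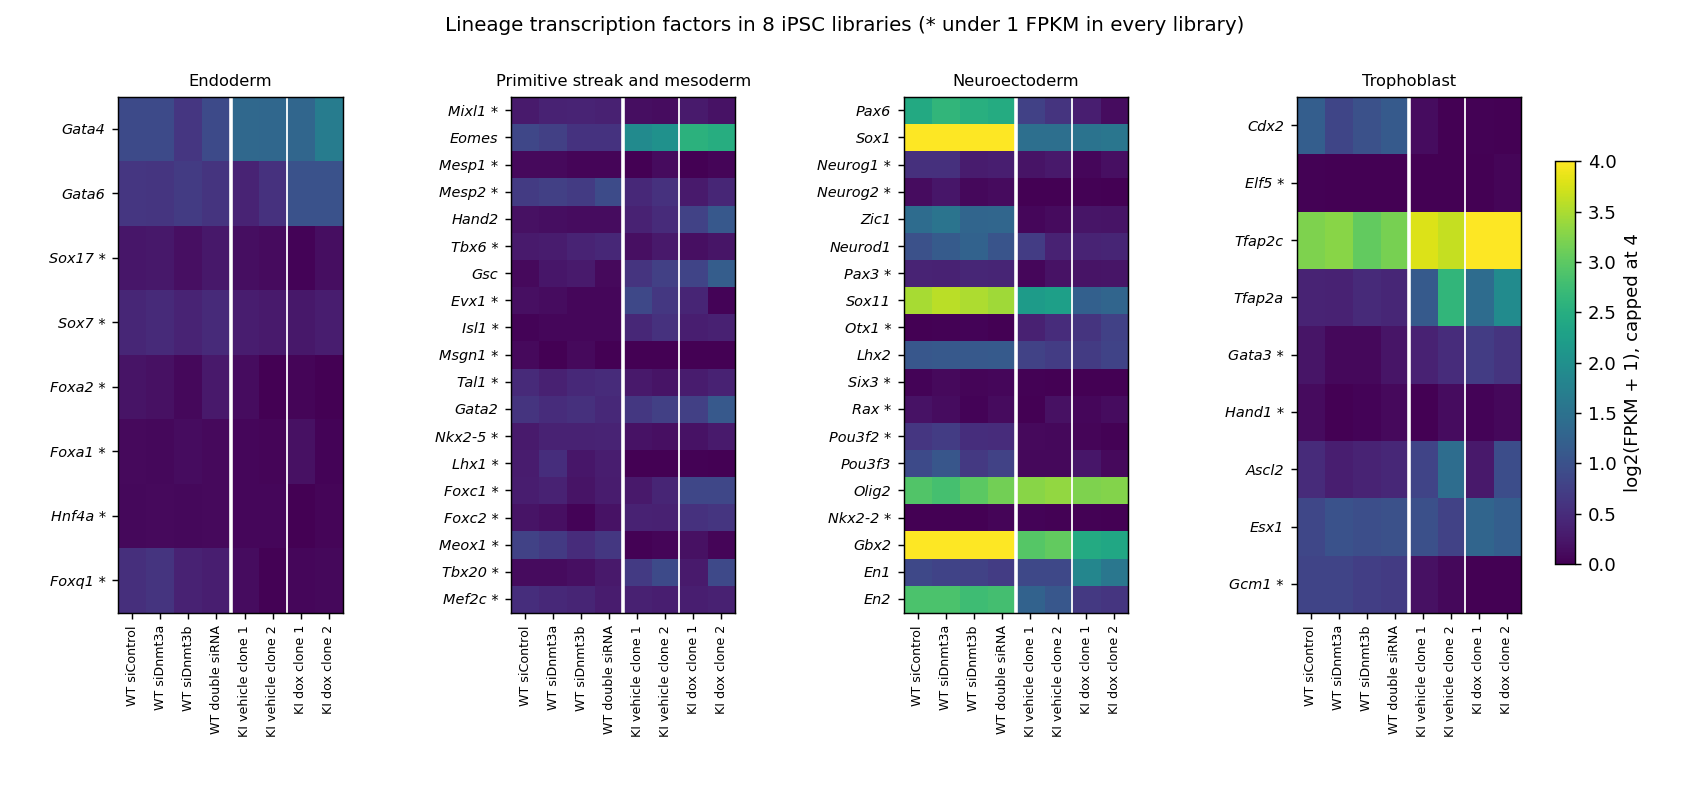
Level of each of the 55 genes (rows, by layer) in the 8 libraries (columns), as log2(FPKM + 1) with the colour scale capped at 4, and an asterisk on genes under 1 FPKM in every library. The wild-type columns are bright at Gbx2, Sox1 and Sox11, and 33 of the 55 rows carry the asterisk.

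The silent genes included well-known lineage drivers. In endoderm these were Sox17, Sox7, Foxa2, Foxa1, Hnf4a and Foxq1, whose highest value was 0.517 FPKM (Foxq1, Dnmt3a siRNA). Foxa2, a pioneer factor of definitive endoderm, peaked at 0.211 FPKM and Hnf4a, a regulator of liver and gut, at 0.0761. In mesoderm, Mesp1, the early marker of heart progenitors, peaked at 0.0831 FPKM, Tbx6, of presomitic mesoderm, at 0.366, and Nkx2-5, of heart, at 0.323. Msgn1, another presomitic factor, was listed at 0 in 6 libraries. In ectoderm, the proneural factors Neurog1 and Neurog2 peaked at 0.473 and 0.187 FPKM, and Six3 and Rax, of forebrain and eye, at 0.0676 and 0.149. In trophoblast, Elf5, which maintains trophoblast stem cells, was listed at 0 in 6 libraries and peaked at 0.0391 FPKM, and Hand1 peaked at 0.0943.

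A few genes carried most of the summed signal, and they differed by line. The 55 genes summed to 168 to 183 FPKM in wild-type and 52.3 to 60.7 FPKM in knock-in libraries. Gbx2 and Sox1 together made up 68.2% to 70.5% of that sum in wild type, 15.6% and 16.1% in vehicle clones, and 10.2% and 11.3% in dox clones. Tfap2c and Olig2 made up 8.16% to 8.72% in wild type, 36.0% and 41.2% in vehicle clones and 43.5% and 44.8% in dox clones. FPKM are per length, so these shares compare levels between genes.

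Among the genes tested between wild-type cells and knock-in vehicle clones, the largest differences were in neural factors. A limma fit of log2(FPKM + 1) over the 4 wild-type and 2 vehicle libraries, with terms for each siRNA, tested 11931 genes with a mean of 1 FPKM or more, 12 of the 55 among them. Its differences set the vehicle clones against the wild-type level fitted at no Dnmt siRNA. The ratios given beside them use the mean of the 4 wild-type libraries. Of the 12, 6 were lower and 5 higher in knock-in vehicle cells at an adjusted p under 0.05, and 1 (Lhx2) was not called. By layer, 8 of the 12 were ectoderm, 1 endoderm, 1 mesoderm and 2 trophoblast factors, so the filter let through mostly ectoderm factors. All 6 that were lower are ectoderm factors (Gbx2, Sox1, Pax6, Zic1, Sox11 and En2). The 5 that were higher were Gata4, Eomes, Olig2, Tfap2c and Tfap2a. Over all genes tested, 24.6% were lower and 27.1% higher, so calls were common in this comparison. The median difference was -0.82 (log2) over the 12 and 0.01 over all genes tested. Gata4, Eomes, Pax6, Zic1, Lhx2 and Tfap2a had a mean of 1 FPKM or more in 1 line only, and a gene that passes the filter in that way had to differ, so the counts describe these genes and support nothing.

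Gbx2 was at 84.6 FPKM with control siRNA, 91.2 with Dnmt3a siRNA, 83.4 with Dnmt3b siRNA and 96.5 with both, against 6.67 and 7.24 in vehicle clones 1 and 2. Every wild-type library was far above both clones, and the ratio of the means was 12.8. The difference was -3.40 on the log2(FPKM + 1) scale (SE 0.0942, limma adjusted p = 6.89e-09). The gene lies at chr1:89927956-89931179 on the minus strand.

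Sox1, an HMG-box factor that is among the earliest marks of the neural plate, was at 32.8, 34.7, 33.3 and 32.8 FPKM in the wild-type libraries in the same order, and at 1.76 and 1.75 in the vehicle clones. The levels did not overlap and differed 19-fold in the means (log2 difference -3.64, SE 0.0996, adjusted p = 6.68e-09). It lies at chr8:12395295-12400126 on the plus strand.

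Pax6, a paired-box factor of eye and forebrain (chr2:105668900-105697364), was at 4.41, 5.20, 4.72 and 4.49 FPKM in wild type and at 0.70 and 0.524 in vehicle. Both clones were below 1 FPKM, and the difference was -1.81 (SE 0.137, adjusted p = 2.84e-06). En2, a homeobox factor of midbrain and cerebellum (chr5:28165694-28172166), was at 6.32, 6.33, 5.74 and 5.97 FPKM in wild type and at 1.40 and 1.13 in vehicle. It was 4.82-fold lower in the means of the vehicle clones (difference -1.68, SE 0.126, adjusted p = 2.65e-06). Its paralog En1 was under 1 FPKM in all of these 6 libraries, at 0.631 to 0.827, and was not tested in this comparison.

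Sox11, a SoxC factor of neural precursors (chr12:27334264-27342574, minus strand), was at 10.1, 11, 10.3 and 9.73 FPKM in wild type and at 3.59 and 3.76 in vehicle. It stayed well above 1 FPKM in both lines and was 2.80-fold lower in vehicle means (difference -1.30, SE 0.113, adjusted p = 7.49e-06). Zic1, a zinc-finger factor of the dorsal neural tube (chr9:91358058-91365810, minus strand), was at 1.67, 1.89, 1.47 and 1.5 FPKM in wild type and at 0.0515 and 0.0801 in vehicle (difference -1.35, SE 0.139, adjusted p = 2.47e-05). The vehicle clones were near 0 for this gene, so its ratio of means, 24.8, rests on very low values.

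Olig2, a bHLH factor of motor neuron and oligodendrocyte progenitors (chr16:91225457-91228677), was the tested ectoderm factor that went the other way. It was at 6.56, 6.09, 6.97 and 7.90 FPKM in wild type and at 8.74 and 9.18 in vehicle. The groups did not overlap, but the gap was small, 1.30-fold in the means (difference 0.46, SE 0.117, adjusted p = 0.00801). Lhx2, a LIM-homeobox factor of forebrain and eye, ranged from 1.12 to 1.20 FPKM in wild type and was at 0.735 and 0.646 in vehicle (difference -0.33, SE 0.138, adjusted p = 0.0682).

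Eomes, a T-box factor of the primitive streak and of trophoblast (chr9:118478212-118486132), was at 0.797, 0.691, 0.496 and 0.506 FPKM in wild type and at 2.77 and 3.08 in vehicle. It was under 1 FPKM in all wild-type libraries and 4.70-fold higher in the vehicle means (difference 1.15, SE 0.139, adjusted p = 7.61e-05). Gata4, a zinc-finger factor of endoderm and heart (chr14:63198922-63271692, minus strand), was at 0.866, 0.855, 0.543 and 0.871 FPKM in wild type and at 1.55 and 1.52 in vehicle (difference 0.51, SE 0.146, adjusted p = 0.0143). This call was lost without any 1 of the wild-type libraries, at adjusted p of 0.0536 to 0.0683.

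The AP-2 factors Tfap2c and Tfap2a were also higher in the vehicle clones. Tfap2c, which acts in trophoblast stem cells and germ cells (chr2:172549593-172558622), was at 8.39, 8.81, 7.23 and 8.08 FPKM in wild type and at 12.8 and 11.5 in vehicle, 1.5-fold higher in the means (difference 0.51, SE 0.111, adjusted p = 0.00354). Tfap2a, of surface ectoderm, neural crest and trophoblast (chr13:40715302-40738376, minus strand), was at 0.315, 0.301, 0.399 and 0.344 FPKM in wild type and at 1.20 and 5.17 in vehicle. Its vehicle clones differed more from each other than clone 1 did from wild type, so the size of its difference (1.48, SE 0.398, adjusted p = 0.0107) is poorly fixed. Without the control siRNA library the calls of Tfap2a and Tfap2c were lost, at adjusted p of 0.192 and 0.0706.

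**Figure D2:**
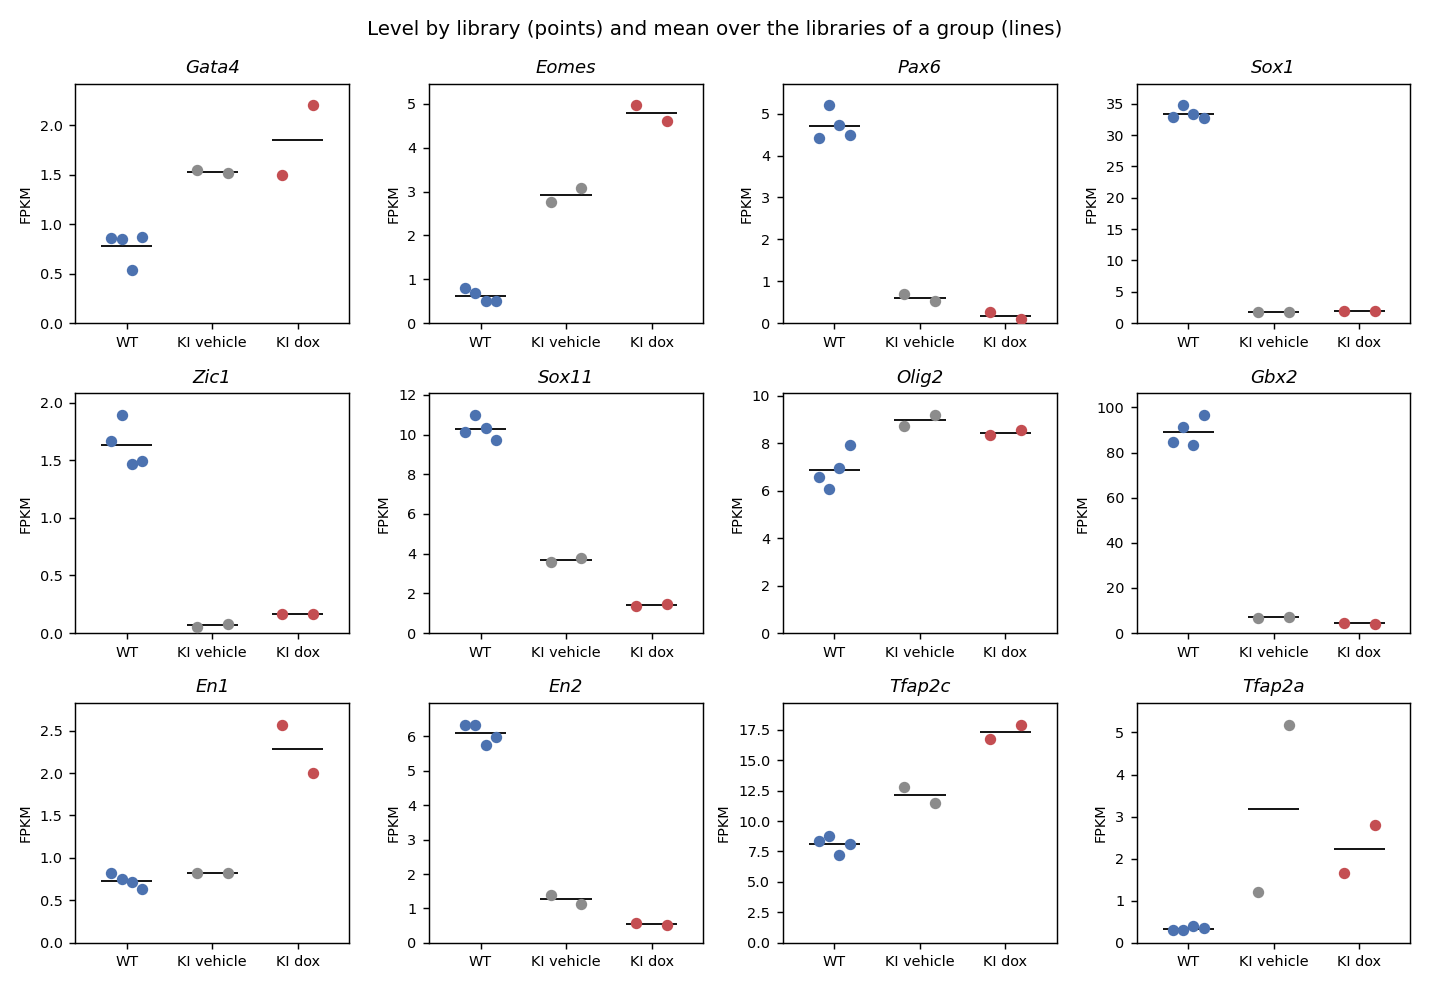
FPKM of the 12 genes called in at least 1 comparison, 1 panel each with its own linear axis from 0, as points for the 4 wild-type, 2 knock-in vehicle and 2 knock-in dox libraries and a line at each group's mean. Gbx2 and Sox1 stand high in wild type only, Eomes steps up from wild type to vehicle to dox, and the 2 vehicle points of Tfap2a lie far apart.

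The 43 genes too low to be tested between the lines were compared by whether the groups overlapped. Over all 55, both vehicle clones were below all 4 wild-type libraries for 29 genes (52.7%) and above them for 15 (27.3%), against 31.7% and 31.3% of the 19429 genes with a value above 0 in some library. By layer, the lower genes were 6 of 8 endoderm, 7 of 19 mesoderm, 14 of 19 ectoderm and 2 of 9 trophoblast factors, and the higher ones 1, 8, 2 and 4. Cdx2, a caudal-type factor that specifies trophectoderm, was at 1.29, 0.792, 0.998 and 1.19 FPKM in wild type and at 0.10 and 0 in vehicle. Gcm1, which drives syncytiotrophoblast formation, was at 0.617 to 0.774 FPKM in wild type and at 0.127 and 0.0660 in vehicle. Pou3f3 and Pou3f2, POU factors of neural progenitors, were at 0.587 to 1.11 and 0.429 to 0.641 FPKM in wild type and at or below 0.0584 and 0.0756 in vehicle. Meox1, of somites, was at 0.427 to 0.731 FPKM in wild type and at 0.0195 and 0.0405 in vehicle, and Lhx1, of the organizer and kidney, was at 0.187 to 0.437 in wild type and listed at 0 in both vehicle clones. In the other direction, Evx1, of the posterior primitive streak, was at 0.0446 to 0.115 FPKM in wild type and at 0.824 and 0.575 in vehicle. Gsc, the organizer factor, was at 0.0705 to 0.219 FPKM in wild type and at 0.514 and 0.686 in vehicle, and Isl1, of heart and motor neuron progenitors, was at 0.0328 to 0.0532 and at 0.358 and 0.478. Otx1, a homeobox factor of forebrain, was beside Olig2 the other ectoderm factor that was higher, at 0 to 0.0303 FPKM in wild type and 0.290 and 0.428 in vehicle. These are differences between low levels. With no filter on low values all 55 genes were tested, and 10 were higher and 19 lower in vehicle clones, against 16.9% and 16.8% of the 19200 genes tested. Cdx2, Gcm1, Pou3f2, Pou3f3, Meox1 and Lhx1 were among the lower and Evx1, Gsc, Isl1 and Otx1 among the higher.

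Other genes of the same layers, from lists kept apart from the 55, moved both ways between the lines. Of 13 tested neuroectoderm genes, 7 were lower and 3 higher in vehicle clones (median -0.79). The lower ones included Fabp7 (-4.83), a radial glia fatty acid binding protein, Sox3 (-3.32), the SoxB1 relative of Sox1, Pou3f1 (-2.68) and Nes (-1.52), which encodes nestin. Of 12 tested trophoblast genes, 6 were lower, Sox21 (-3.14), Peg10 (-3.00) and Fgfr2 (-2.27) among them, and 4 higher, led by Tead4 (2.52), a TEAD factor of trophectoderm (list median -0.38). Of 11 mesoderm genes, 5 were lower, Meis1 (-2.47) among them, and 2 higher, Tbx3 (2.21) and Bmp4 (2.11) (list median -0.23). Of 10 endoderm genes, 4 were lower, with Dab2 (-1.0) and Rhox5 (-0.99), and 3 higher, with Sparc (1.14) and Col4a2 (1.04) (list median 0.23). Of the 15 pluripotency markers, 11 were higher in vehicle clones, with Tfcp2l1 (3.02), Tbx3 (2.21), Esrrb (1.89) and Nanog (1.73) leading, and 2 were lower, Utf1 (-0.82) and Lin28a (-0.68). Of fibroblast markers, 21 of 25 tested were higher and none lower (median 1.21), and of macrophage markers 7 of 8 were higher (median 1.11). Contractile markers of smooth muscle and myofibroblasts went both ways, with Cnn1 (-1.08), Myl9 (-0.74) and Tpm2 (-0.50) lower and Acta2 (1.43) higher of 5 tested (median -0.50). The part of these cells in the differences of the lineage factors was not tested.

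Dox-treated clones were compared with vehicle clones of the same line in a limma fit of those 4 libraries. It tested 11927 genes, 10 of the 55 among them. En1, Eomes and Tfap2c were higher after dox and Sox11 and Gbx2 lower. Gata4, Esx1, Tfap2a, Olig2 and Sox1 were not called. Over all genes tested, 17.1% were higher and 14.8% lower. With the clone number as a block, 3052 genes were higher and 3190 lower, against 2035 and 1767 without it. En1 and Esx1 reached a mean of 1 FPKM in the dox clones only. A gene that passes the filter in that way had to differ, so the counts describe these genes and support nothing. The median difference was 0.13 over the 10 and -0.01 over all genes tested.

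En1, a homeobox factor of midbrain and limb ectoderm (chr1:120602418-120607992), was at 0.827 and 0.823 FPKM in vehicle clones 1 and 2 and at 2.56 and 2.00 in dox clones 1 and 2. It was 2.77-fold higher in the dox means and was also under 1 FPKM in all wild-type libraries (difference 0.84, SE 0.132, adjusted p = 0.00619). Eomes went from 2.77 and 3.08 FPKM in vehicle to 4.96 and 4.61 in dox, 1.64-fold higher (difference 0.56, SE 0.105, adjusted p = 0.0115). The call of Eomes was lost without vehicle clone 1, at an adjusted p of 0.0573. Tfap2c went from 12.8 and 11.5 FPKM to 16.8 and 17.9, 1.42-fold higher (difference 0.48, SE 0.0922, adjusted p = 0.0126), and lost its call without vehicle clone 2, at 0.0558. For all 3 genes both dox clones lay above both vehicle clones.

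Sox11 was at 3.59 and 3.76 FPKM in vehicle and at 1.35 and 1.48 in dox, 2.6-fold lower in the means (difference -0.95, SE 0.108, adjusted p = 0.00201). Gbx2 was at 6.67 and 7.24 FPKM in vehicle and at 4.46 and 4.20 in dox, 1.61-fold lower (difference -0.58, SE 0.0979, adjusted p = 0.00836). En2 was below the level needed for the test, at 1.40 and 1.13 FPKM in vehicle and 0.585 and 0.528 in dox. Pax6 was likewise untested, at 0.70 and 0.524 FPKM in vehicle and 0.268 and 0.0972 in dox. Zic1, untested too, went the other way, at 0.0515 and 0.0801 FPKM in vehicle and 0.167 and 0.161 in dox. Of the 19 ectoderm factors, 8 were lower in both dox clones than in both vehicle clones and 6 higher. Sox1 was at 1.76 and 1.75 FPKM in vehicle and 1.89 and 1.98 in dox (difference 0.09, SE 0.109, adjusted p = 0.543), and Olig2 at 8.74 and 9.18 against 8.33 and 8.55 (difference -0.08, SE 0.0878, adjusted p = 0.526). Both comparisons use the same vehicle libraries, so the values of a gene in the 2 comparisons are not independent.

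Of the other tested genes, Esx1, a homeobox factor of the placenta, was at 0.970 and 0.727 FPKM in vehicle and 1.48 and 1.30 in dox (difference 0.37, SE 0.131, adjusted p = 0.0714, and 0.0207 with the clone number as a block). Gata4 was at 1.55 and 1.52 FPKM in vehicle and 1.5 and 2.2 in dox (difference 0.16, SE 0.148, adjusted p = 0.435). Tfap2a was at 1.20 and 5.17 FPKM in vehicle and 1.66 and 2.80 in dox (difference -0.22, SE 0.449, adjusted p = 0.733), where the gap between the vehicle clones was wider than that between the groups. Without vehicle clone 1 its difference was -0.96, at an adjusted p of 0.0266.

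**Figure D3:**
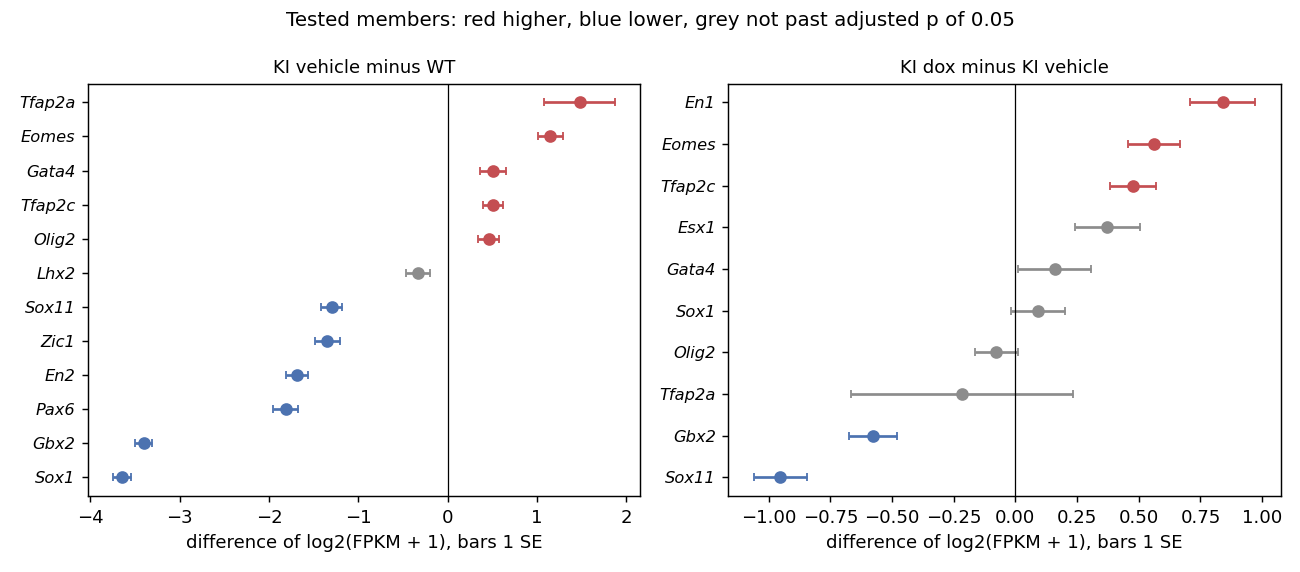
Differences on the log2(FPKM + 1) scale for the genes tested in each comparison, 12 between knock-in vehicle and wild type and 10 between dox and vehicle, with bars of 1 SE. The wild-type side is the level fitted at no Dnmt siRNA. Sox1 (-3.64) and Gbx2 (-3.40) lie lowest in the comparison of lines, and Sox11 is the lowest and En1 the highest with dox.

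Among all 55, both dox clones were above both vehicle clones for 18 genes (32.7%) and below them for 13 (23.6%), against 29.6% and 29.8% of the 19429 genes. By layer, the genes above were 1 of 8 endoderm, 8 of 19 mesoderm, 6 of 19 ectoderm and 3 of 9 trophoblast factors, and those below 1, 3, 8 and 1. Gata6, the endoderm factor above, was at 0.324 and 0.490 FPKM in vehicle and 1.01 in each dox clone. Hand2, of heart, limb and branchial arch, was at 0.309 and 0.400 FPKM in vehicle and 0.733 and 1.15 in dox. Gata2, of blood and trophoblast, was at 0.571 and 0.690 FPKM in vehicle and 0.691 and 1.18 in dox, so that the groups all but touched. Gsc was at 0.514 and 0.686 in vehicle and 0.771 and 1.27 in dox. The forkhead factors of mesenchyme Foxc1 and Foxc2 were at 0.205 and 0.336, and at 0.301 and 0.296 FPKM, in vehicle, and at 0.810 and 0.801, and 0.490 and 0.533, in dox. The 3 mesoderm factors below were Evx1, at 0.824 and 0.575 FPKM in vehicle and 0.329 and 0.0289 in dox, Isl1, at 0.358 and 0.478 against 0.256 and 0.296, and Mesp2, at 0.378 and 0.485 against 0.223 and 0.343. With no filter on low values, 54 of the 55 genes were tested with dox, where 8.3% of all 18683 genes were higher and 5.07% lower. Gata6 (adjusted p = 0.0333), Foxc1 (0.0271) and Foxc2 (0.0489) passed as higher and En2 (0.0367) as lower, beside the 5 genes above.

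The low genes that were higher in dox clones stood beside a rise of fibroblast markers. All 28 tested fibroblast markers were higher after dox (median difference 1.61). Of 4 tested contractile markers, Myl9 (1.27) and Tpm2 (0.80) were higher and Tagln (-0.33) lower (median 0.39). Of macrophage markers, 4 of 8 were higher and none lower (median 0.50). The fibroblast marker sum was also higher in vehicle clones than in wild type. There, Hand2 and Foxc2 were higher in both vehicle clones than in all wild-type libraries and Gata6 lower, while Foxc1 and En1 overlapped. Feeder cells are commonly embryonic fibroblasts, which are mesenchymal. Their part in the values of Hand2, Foxc1, Foxc2, Gata6 and En1 was not tested.

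**Figure D4:**
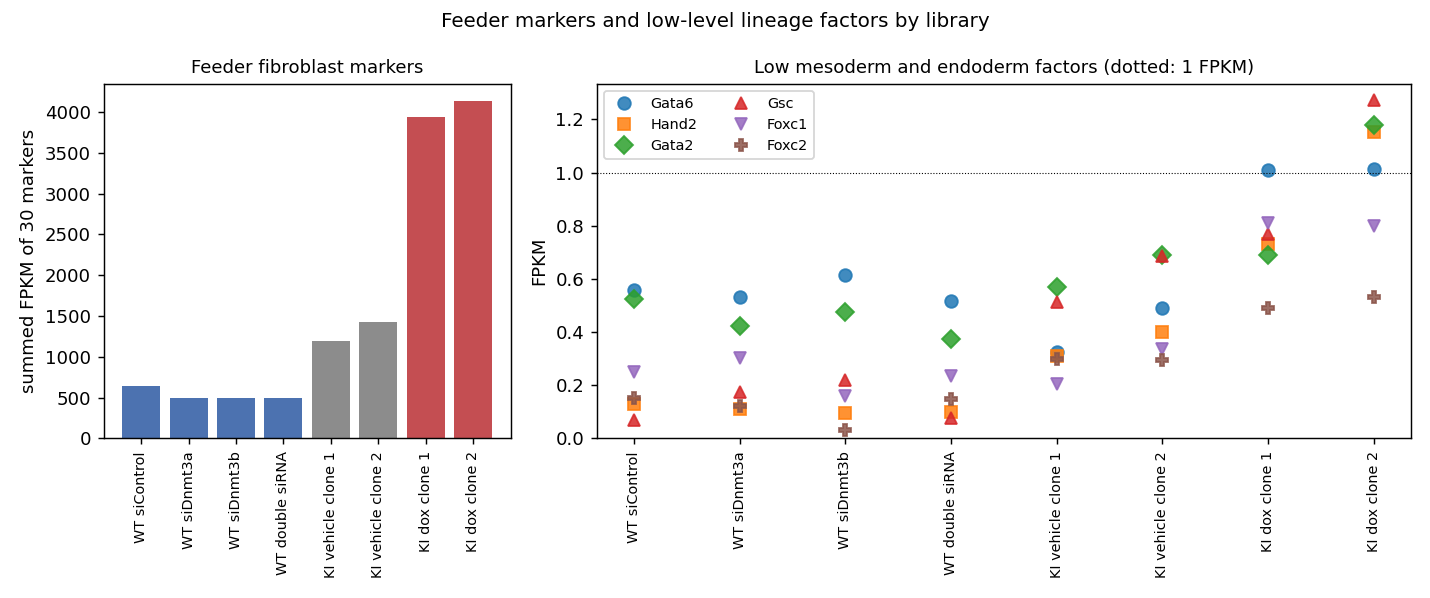
Summed FPKM of 30 fibroblast markers per library, and the FPKM per library of Gata6, Hand2, Gata2, Gsc, Foxc1 and Foxc2, with wild-type, vehicle and dox libraries marked. The marker sum is 3934 and 4139 in the dox libraries against 1194 and 1422 in vehicle, and the 6 genes reach at most 1.27 FPKM.

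Other genes of each layer also moved both ways after dox. Of 11 tested endoderm genes, 6 were higher and 1 lower (median 1.06), with Col4a2 (1.25), Lamb1 (1.25), Sparc (1.23) and Dab2 (1.18) leading. Col4a2, Lamb1 and Sparc encode basement membrane or matrix proteins, which fibroblasts also make, and Dab2 an endocytic adaptor. Of 10 mesoderm genes, 6 were higher and 1 lower (median 0.74), with Cdx1 (0.91) and Twist1 (0.87) higher and Bmp4 (-0.98) lower. Of 12 neuroectoderm genes, 5 were lower and 2 higher (median -0.36): Pou3f1 (-1.62) and Otx2 (-0.50) fell, and Hes1 (0.91), a Notch target, rose. Of 9 trophoblast genes, 4 were higher and 1 lower (median 0.01), with the keratins Krt8 (0.85) and Krt18 (0.41) and Id2 (0.46) higher and Peg10 (-1.35) lower. Twist1 is also a fibroblast marker. Of the 15 pluripotency markers, 6 were higher and 1, Utf1, lower (median 0.14).

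The Dnmt siRNAs were not seen to move these genes. In the fit of 6 libraries, 12 of the 55 were tested for each siRNA and none was called, and none had an unadjusted p under 0.05. Over all genes tested, limma called 7 of 11931 (0.0587%) for Dnmt3a siRNA, with 1114 at an unadjusted p under 0.05, and none (0%) for Dnmt3b siRNA, with 348. The smallest adjusted p among the 55 was 0.566 for Dnmt3a siRNA, and for Dnmt3b siRNA it was 0.9995. Against the control siRNA library alone, with no test, 11 of the 55 were at a mean of 1 FPKM or more, and none differed by 2-fold in any siRNA library, against 0.153% of genes with Dnmt3a siRNA, 0.111% with Dnmt3b siRNA and 0.239% with both. The differences ran from -0.36 (Cdx2) to 0.20 (Pax6) with Dnmt3a siRNA, from -0.20 (Cdx2) to 0.26 (Neurod1) with Dnmt3b siRNA, and from -0.10 (Zic1) to 0.24 (Olig2) with both. The spread in that fit also takes in the gap between the vehicle clones, which had no siRNA. Each siRNA group is 1 library and the targets were little reduced, so a small effect may be missed.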

How the data were processed

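RNA of 8 libraries was sequenced as polyA-selected, strand-specific libraries on a HiSeq2500, per the labels' protocols. The values are FPKM deposited by the authors as 1 table. The submitters' processing notes list Cufflinks 2.2.1 with Cuffnorm, TopHat2 2.0.10 with Bowtie 1.0.0, SAMtools 0.1.19 and FastQC, and call the genome GRCm38 or mm10. Not given in the sources used here are the annotation, strand option and library scaling. Near-identical genes share fragments by estimation.

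Depth in fragments is not given, so no counting intervals were computed. From values under 0.3 FPKM, relative depth was roughly 92.6% to 100% of the control siRNA library, with 12.8% to 17.8% of such genes at the commonest ratio.

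Groups came from the labels. Tests used limma 3.58.1 in R 4.3.3 (lmFit, eBayes with trend) on log2(FPKM + 1), for genes with a mean of 1 FPKM or more, two-sided, with Benjamini-Hochberg adjustment over all genes tested and a threshold of 0.05. Differences on this scale understate changes of low genes. The scripts were tested on simulated data. Alternatives were the pseudocount, the filter, scaling, the siRNA terms, the clone block and leaving out each library. Clones are numbered 1 and 2 in each group by the labels, which leave unsaid whether a shared number is a shared clone. Clone 2 minus clone 1 in dox was correlated with clone 2 minus clone 1 in vehicle (Pearson r = 0.441). That value is over 11927 genes, and genes are no replicates.

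The 55 genes and the lists were chosen with earlier results of these data known. Genes called in either comparison are given in every library, with En1 as a range in wild type. Other tested genes are given with their test, untested ones by level, and up to 4 called genes per list. Some genes that this rule names are not reported here. Emr1 and Mtap2 stand in the table for Adgre1 and Map2. Gene positions are from GENCODE on GRCm38, and the authors' annotation may differ.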

Additional observations from a re-analysis of the deposited data

How the results depend on the processing

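Calls of single genes mostly held: of the alternatives tried per tested gene, 84 for dox and 127 for the lines kept direction and side of the threshold, 2 and 9 lost the call, 2 and 2 gained it, and 4 and 0 changed sign. The 4 were uncalled differences with dox: Gata4 (-0.0197 without dox clone 2, and 0.338 without dox clone 1), Sox1 (-0.0491 with quantile normalization) and Tfap2a (0.0418 without dox clone 1, and from -0.959 without vehicle clone 1 to 0.527 without vehicle clone 2). Counts followed the filter. At a mean of 5 FPKM or more, 1 of the genes was higher and 1 lower with dox, and 2 were higher and 3 lower between the lines. With no filter, 6 were higher with dox, and 10 were higher and 19 lower between the lines. With control siRNA as the only wild-type reference, 3 were higher. Leaving out 1 library in turn gave 2 to 3 higher and 2 to 3 lower with dox, and 2 to 4 higher and 5 to 6 lower between the lines. The count under 1 FPKM in every library was 33, and 22 under 0.5 FPKM, 44 under 2 FPKM and 33 to 36 without 1 library.

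Over all genes, with dox, 1289 were higher at a mean of 5 FPKM or more, 947 were lower with no filter, and leaving out 1 library gave 1100 to 2064 higher and 538 to 1993 lower. With the clone number as a replicate block, 3052 genes were higher and 3190 lower with dox, against 2035 and 1767 without it. Of the 55, 4 were then higher (Esx1 added) and 2 lower. Between the lines, 2071 were higher at a mean of 5 FPKM or more, and leaving out 1 library gave 1705 to 3065 higher and 1310 to 2855 lower. For Dnmt3a siRNA, 2 were lower with median-ratio scaling, and leaving out 1 library gave 1 to 70 higher and 2 to 127 lower. For Dnmt3b siRNA it gave 0 to 18 higher and 0 to 27 lower. The cause of these shifts was not tested. With a pseudocount of 0.1 the differences of low genes grew, to -2.75 for Pax6, -3.46 for Zic1, 1.80 for Eomes, 2.63 for Tfap2a and 0.91 for Gata4 between the lines and 1.35 for En1 with dox. With no filter, the limma adjusted p of Sox1 and of Gbx2 between the lines rose to 0.00127, at unchanged differences. Gata4 and Tfap2a also lost their calls between the lines with control siRNA alone (adjusted p = 0.0904 and 0.0724), Tfap2a with no filter (0.121), and Lhx2 gained one with no filter (0.0411) and without siRNA terms (0.00470).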
